A study of Mus musculus with 13 samples.

Results

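The effect of losing Raptor on the injured nerve was examined by comparing the part of the sciatic nerve distal to a crush between RaptorKO and control mice at 5 days post crush (dpc). Genes entered by depth alone. Of the 40787 genes in the table, 12040 held 50 or more counts in at least 2 of the 6 injured libraries, and all of these were tested. RaptorKO mice carried a tamoxifen-inducible Cre transgene (CreERT2) on floxed Rptor alleles (Rptor fl/fl), and controls carried the floxed alleles without Cre. Mice of both genotypes, on a C57BL/6 background, were given tamoxifen at 2 months of age, so that the drug was shared by all groups, and were operated on 2 months later. Each injured group held 3 nerves. Contralateral nerves (3 control, 4 RaptorKO) gave the level without a crush. Per the study, the nerves of a group came from different mice, and contralateral nerves were those of crushed mice, so that same-numbered libraries of a genotype were read as both nerves of 1 mouse. Recombination is limited to cells in which the promoter of the transgene is active, mainly Schwann cells (SCs), and the other cells of the nerve keep Rptor.

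Raptor is the scaffold subunit of mTORC1, the kinase complex that couples growth factors and amino acids to protein and lipid synthesis and restrains autophagy. After a crush, axons distal to the lesion degenerate, and SCs leave the myelinating state, break down their myelin, divide and take on a repair state. Macrophages enter, matrix is rebuilt and vessels grow. A whole-nerve library adds up the transcripts of all these cells, so fewer cells of a type and less RNA per cell cannot be told apart.

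The 6 libraries held 9792211 to 11734576 counts. Levels are given as CPM, counts scaled to the size of each library, and fold changes as log2 of RaptorKO over control with the standard error (SE). A gene was called lower or higher when its adjusted p (edgeR's quasi-likelihood test, Benjamini-Hochberg over all 12040 genes) was below 0.05 and its fold change above 1.2. Control injured 3 held 14462 counts of Xist and 20 of 4 Y-linked genes, against 4 to 14 and 1535 to 1873 in the other 5 libraries. It also had the highest sum of adipocyte genes, 118 CPM. RaptorKO injured 2 had the lowest sum of macrophage genes, 6528 CPM, against 9019 to 9878 CPM in the other 5. None of 12 skeletal muscle genes passed the filter. SC genes were present in every library (Sox10, 276 to 491 CPM).

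Rptor, on chromosome 11 of GRCm38 (119602905 to 119899576), had 35.2 to 48.8 CPM in controls and 23.3 to 28.8 CPM in RaptorKOs (log2 fold change -0.68, SE 0.15, adjusted p = 0.0167). When control injured 1, control injured 2 or RaptorKO injured 1 was left out, Rptor was no longer called (adjusted p = 0.0511, 0.0882 and 0.0675). Reads were counted per gene, so the deleted part was not seen on its own. Of 24 tested members of the mTOR complexes and the TSC brake, 2 were lower and 0 higher. Over all tested genes 4.44% were lower and 4.09% higher, shares against which the count of every list below is to be read. The lists were chosen with earlier results of these data known, so a count above these shares is description and no test. The other lower mTOR gene was Deptor, an inhibitory subunit (log2 fold change -0.43, SE 0.11, adjusted p = 0.0361), which lost its call without any single library, with adjusted p from 0.0624 to 0.123. Mtor, the kinase itself, had a log2 fold change of 0.02 (SE 0.16), and Rictor, the scaffold of the other mTOR complex, one of 0.27 (SE 0.13, adjusted p = 0.252).

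Across all genes, 535 were lower and 493 higher in RaptorKO injured nerves. All 535 lower genes and 489 of the 493 higher ones had groups that did not overlap, against 14.6% of tested genes lower and 11.7% higher without overlap. Differences of more than 2-fold were found in 117 lower and 149 higher genes. No gene was called in the opposite direction in any of the alternative analyses, but many calls needed all 6 libraries. Leaving out control injured 2 left 271 lower and 176 higher genes, and leaving out RaptorKO injured 1 left 290 and 234. Without control injured 1 the counts were 346 and 306, and without control injured 3, 350 and 322. In all, 198 lower and 120 higher genes kept their call in every alternative that tested them, the stricter threshold included.

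**Figure D1:**
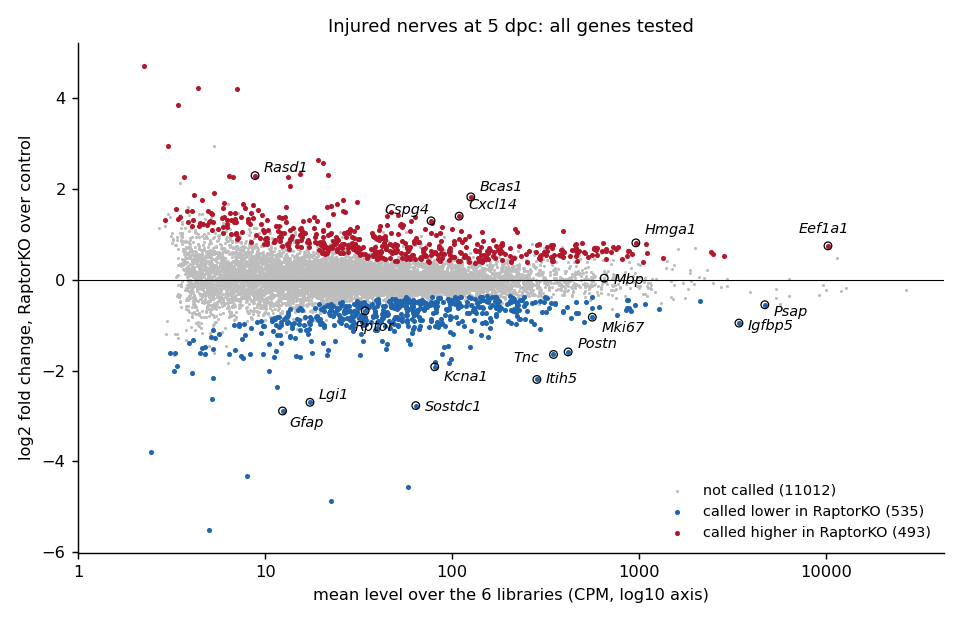
Log2 fold change (RaptorKO over control, y axis) of each of the 12040 tested genes against its mean level over the 6 injured libraries (CPM, log10 x axis). Blue points are the 535 genes called lower, red points the 493 called higher, and circles mark named genes, from Gfap (-2.89) and Sostdc1 (-2.77) to Bcas1 (1.83).

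Genes of mitosis fell together, whereas most genes of DNA replication did not pass the test. Of 64 tested mitotic genes 55 were lower and 0 higher, and 62 had groups that did not overlap. Their median log2 fold change was -0.82, against 0.00 over all genes. Leaving out any single library left 43 to 55 lower. Ccnb1 (cyclin B1, the partner of Cdk1 at mitotic entry) had control levels of 64.8, 67.4 and 68.9 CPM and RaptorKO levels of 29.2, 30.0 and 32.1 CPM. The RaptorKO libraries lay close together, below every control (log2 fold change -1.12, SE 0.11, adjusted p = 0.000343). Kif20a, a kinesin of cytokinesis (-1.04, SE 0.11), Aspm, a spindle pole protein (-1.02, SE 0.11), Cenpe, a kinesin of the kinetochore (-0.97, SE 0.11), and Foxm1, a transcription factor for mitotic genes (-0.74, SE 0.13), were lower as well. Mki67, the proliferation marker, had control levels of 798, 681 and 683 CPM and RaptorKO levels of 423, 379 and 407 CPM (log2 fold change -0.82, SE 0.11, adjusted p = 0.00168). Mybl2, named after its values were seen, was the 1 mitotic gene above 0 (log2 fold change 0.26, SE 0.18, adjusted p = 0.477).

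The summed level of the mitotic genes was 5510 to 5830 CPM in injured controls and 2945 to 3401 CPM in injured RaptorKOs. In contralateral nerves of both genotypes it was 216 to 299 CPM, so the RaptorKO sum remained far above the uninjured level. For DNA replication the sums were 2412 to 2508 CPM in controls and 2110 to 2370 CPM in RaptorKOs. Here 5 of 51 tested genes were lower and 0 higher (median -0.10). Rrm1, the large subunit of ribonucleotide reductase, had control levels of 186, 169 and 176 CPM and RaptorKO levels of 131, 125 and 123 CPM (log2 fold change -0.47, SE 0.10, adjusted p = 0.0124). The replicative helicase subunit Mcm2 had control levels of 74.6, 65.2 and 58.5 CPM and RaptorKO levels of 75.4, 61.3 and 62.1 CPM, and the groups overlapped (log2 fold change 0.02, SE 0.13, adjusted p = 0.96). Pcna, the sliding clamp of DNA polymerase, had a log2 fold change of -0.13 (SE 0.10, adjusted p = 0.512). Without control injured 2 or control injured 3, 2 replication genes were lower, and without RaptorKO injured 3, 3.

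Among cyclins, kinase inhibitors and p53 genes that govern entry into the cycle, 2 of 20 were lower and 1 higher. Myc, a transcription factor that drives growth, rose from 51.7, 46.6 and 44.05 CPM in controls to 75.1, 88.7 and 87.3 CPM in RaptorKOs (log2 fold change 0.83, SE 0.12, adjusted p = 0.00177). Cdkn2c, which inhibits Cdk4 and Cdk6, fell from 50.6, 55.2 and 52.2 CPM in controls to 33.8, 23.5 and 26.1 CPM in RaptorKOs (log2 fold change -0.91, SE 0.15, adjusted p = 0.00392). Every RaptorKO library lay outside the control range for both genes. Ccng1, a p53 target, fell by 0.85 on the log2 scale (SE 0.14). Ccnd1, the G1 cyclin, stood at 1039 to 1328 CPM in controls and 1052 to 1173 CPM in RaptorKOs (log2 fold change -0.08, SE 0.12, adjusted p = 0.794).

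Mitotic genes are known to share promoter elements, among them the cell cycle homology region (CHR, letters TTTGAA) and CCAAT boxes, the latter bound by NF-Y. Both were searched on both strands in RefSeq windows of 300 bases, from 250 before to 50 after the start, of 27025 genes (GRCm38.p6). A CHR was found in 70.4% of the 54 mitotic genes with a window, in 14.6% of 41 replication genes, in 11.8% of the tested genes with a window (77.9% of those tested) and in 18.1% of all genes. CCAAT was found in 70.4%, 61%, 38.6% and 37.9%, and both motifs in 57.4%, 12.2%, 4.92% and 7.12%. A window was found for only 74% of the lower and 69.2% of the higher genes, which leaves too many without one, so the search is void for those sets, for the AP-1 element (TGANTCA) as for the others. The tested genes, at 77.9%, also lack many windows, so their shares here and below are a rough background only. The 250 bases before the start are shown for 5 lower mitotic genes and, for contrast, for Mcm2, with every CHR (TTTGAA, or TTCAAA on the other strand) and every CCAAT (or ATTGG) in capitals. Cdk1, Top2a and Ube2c were picked after their values were seen.
Ccnb1 (chr13:100786487-100786736, minus strand): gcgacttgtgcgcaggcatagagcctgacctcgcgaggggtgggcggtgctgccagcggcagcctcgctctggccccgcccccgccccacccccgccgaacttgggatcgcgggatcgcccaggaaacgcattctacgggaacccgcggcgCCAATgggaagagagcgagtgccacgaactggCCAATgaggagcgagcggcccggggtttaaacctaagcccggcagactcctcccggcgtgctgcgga
Mki67 (chr7:135716380-135716629, minus strand): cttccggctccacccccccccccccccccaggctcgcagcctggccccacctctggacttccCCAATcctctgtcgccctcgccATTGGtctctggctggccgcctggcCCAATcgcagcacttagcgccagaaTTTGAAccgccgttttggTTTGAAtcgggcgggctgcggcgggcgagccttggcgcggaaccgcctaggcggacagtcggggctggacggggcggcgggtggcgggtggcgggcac
Cdk1 (chr10:69352913-69353162, minus strand): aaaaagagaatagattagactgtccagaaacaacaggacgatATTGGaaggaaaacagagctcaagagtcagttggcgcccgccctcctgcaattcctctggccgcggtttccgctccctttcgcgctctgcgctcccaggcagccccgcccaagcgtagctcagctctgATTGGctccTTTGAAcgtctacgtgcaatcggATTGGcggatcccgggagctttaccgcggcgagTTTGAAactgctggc
Top2a (chr11:99024190-99024439, minus strand): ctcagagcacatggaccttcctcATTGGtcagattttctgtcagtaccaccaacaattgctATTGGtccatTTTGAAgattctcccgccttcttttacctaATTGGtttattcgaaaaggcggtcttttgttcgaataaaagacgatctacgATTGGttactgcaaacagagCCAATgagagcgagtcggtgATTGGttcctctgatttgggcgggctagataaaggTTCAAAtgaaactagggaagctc
Ube2c (chr2:164769679-164769928, plus strand): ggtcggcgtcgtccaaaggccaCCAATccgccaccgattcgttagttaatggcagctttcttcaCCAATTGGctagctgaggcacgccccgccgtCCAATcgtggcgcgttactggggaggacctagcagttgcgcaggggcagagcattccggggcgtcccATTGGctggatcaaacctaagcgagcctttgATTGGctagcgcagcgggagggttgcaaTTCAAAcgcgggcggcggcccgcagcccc
Mcm2 (chr6:88898781-88899030, minus strand): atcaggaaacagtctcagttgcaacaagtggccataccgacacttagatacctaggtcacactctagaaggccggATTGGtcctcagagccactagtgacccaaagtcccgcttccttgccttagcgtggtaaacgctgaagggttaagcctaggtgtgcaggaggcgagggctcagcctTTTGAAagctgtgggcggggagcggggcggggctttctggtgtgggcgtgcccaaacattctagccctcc

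Cdk1, the mitotic kinase, had a log2 fold change of -0.89 (SE 0.13), Top2a, which untangles sister chromatids, one of -0.86 (SE 0.10), and Ube2c, which serves the anaphase-promoting complex, one of -1.05 (SE 0.20). Ccnb1 held CCAAT boxes and no TTTGAA on either strand in these bases, and Mcm2 held both motifs and was not called. Other forms of the CHR were not searched. A match describes the letters and is not a test of binding.

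**Figure D2:**
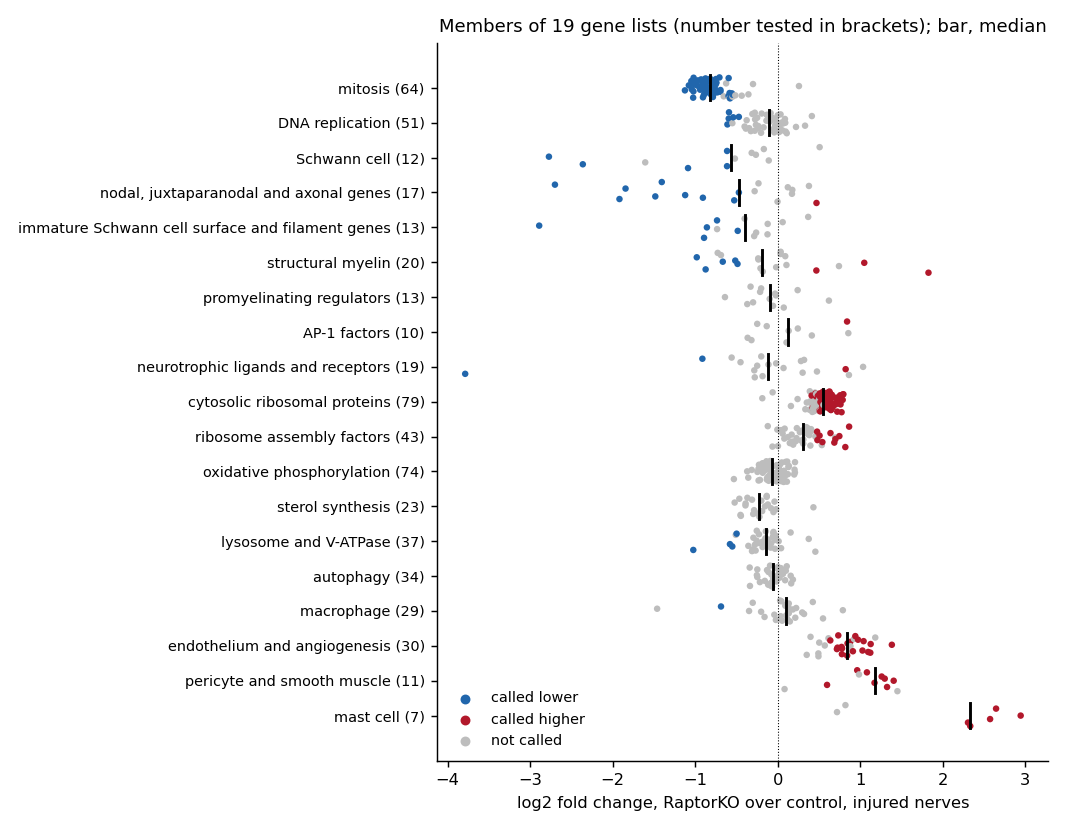
Log2 fold change (RaptorKO over control, injured nerves, x axis) of every tested member of 19 gene lists, with the number tested in brackets and a black bar at the median. Blue members were called lower and red ones higher, with mitosis to the left (median -0.82), ribosomal proteins (0.55) and endothelium (0.84) to the right, and oxidative phosphorylation around 0 (-0.06).

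Markers of the SC lineage were lower in part. Of 12 SC markers 5 were lower and 0 higher (median -0.57). S100b, a calcium-binding protein of SCs, had control levels of 386, 399 and 428 CPM and RaptorKO levels of 153, 242 and 170.2 CPM, each RaptorKO below the lowest control (log2 fold change -1.09, SE 0.16, adjusted p = 0.0028). Sostdc1, a secreted Wnt and BMP antagonist, had control levels of 81.99, 140.0 and 113 CPM and RaptorKO levels of 21.5, 11.4 and 15.8 CPM (log2 fold change -2.77, SE 0.24, adjusted p = 0.000117). Gpr37l1, an orphan receptor of glia (-2.36, SE 0.35), and Matn2, a matrix adaptor protein (-0.61, SE 0.10), also fell. Sox10, the lineage factor, had control levels of 424, 491 and 402 CPM and RaptorKO levels of 366, 418 and 276 CPM, and the groups overlapped (log2 fold change -0.30, SE 0.15, adjusted p = 0.301).

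Structural myelin genes moved in both directions. Of 20 tested, 5 were lower and 3 higher (median -0.19). Ugt8a, which makes galactocerebroside, fell from 60.2, 70.3 and 60.7 CPM in controls to 39.98, 29.6 and 33.8 CPM in RaptorKOs (log2 fold change -0.87, SE 0.14, adjusted p = 0.00325). Cadm4, an adhesion molecule that binds axons (-0.98, SE 0.16, adjusted p = 0.00405), was lower too. In the opposite direction, Gjb1, which encodes the gap junction protein connexin 32, had control levels of 90.2, 104 and 91.2 CPM and RaptorKO levels of 190.1, 213 and 181 CPM (log2 fold change 1.05, SE 0.11, adjusted p = 0.000441). Bcas1, a gene of newly myelinating glia, had control levels of 51.9, 59.3 and 55.95 CPM and RaptorKO levels of 207, 201 and 179 CPM (log2 fold change 1.83, SE 0.11, adjusted p = 1.03e-05). Without control injured 2, RaptorKO injured 1 or RaptorKO injured 3, 3 myelin genes were lower. Gjb1 lies on the X chromosome and kept its call without control injured 3.

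Mbp and the promyelinating regulators were not among the called genes. Mbp, a protein that compacts the myelin sheath, had control levels of 721, 697 and 520.1 CPM and RaptorKO levels of 730.0, 675 and 559.9 CPM (log2 fold change 0.04, SE 0.15, adjusted p = 0.93). Its levels overlapped between genotypes, and the contralateral control mean was 23319 CPM. None of 13 promyelinating regulators was called by edgeR, with 4 lower and 1 higher at an unadjusted p below 0.05 and 1 called by DESeq2. Of all 12040 tested genes 2594 had an unadjusted p below 0.05 in either direction, so such counts mean little alone. Egr2, the master regulator of myelination, had a log2 fold change of 0.24 (SE 0.12, adjusted p = 0.259).

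Genes of the contact between SC and axon were lower in part. Of 17 tested genes of nodes, juxtaparanodes, potassium channels and LGI proteins, 9 were lower and 1 higher (median -0.47), and 6 were lower without RaptorKO injured 1. Kcna1, for the voltage-gated potassium channel Kv1.1, had control levels of 135, 129 and 119.7 CPM and RaptorKO levels of 36.1, 31.97 and 32.3 CPM, tightly grouped in each genotype (log2 fold change -1.92, SE 0.11, adjusted p = 7.32e-06). Kcna2, for Kv1.2, fell from 139, 164 and 149 CPM in controls to 47.3, 38.7 and 39.04 CPM in RaptorKOs (log2 fold change -1.84, SE 0.12, adjusted p = 1.27e-05). Kcna6, for Kv1.6 (-1.12, SE 0.13), and Scn7a, a sodium channel relative (-1.48, SE 0.14), were named after their values were seen. Lgi1, a secreted ligand that organises Kv1 channels in brain, had control levels of 21.1, 35.2 and 34.02 CPM and RaptorKO levels of 5.09, 4.26 and 4.41 CPM (log2 fold change -2.70, SE 0.23, adjusted p = 0.000118). Adam23, a receptor of LGI proteins, fell from 69.2, 60.4 and 65.9 CPM in controls to 26.4, 25.3 and 21.3 CPM in RaptorKOs (log2 fold change -1.41, SE 0.13, adjusted p = 0.000182).

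**Figure D3:**
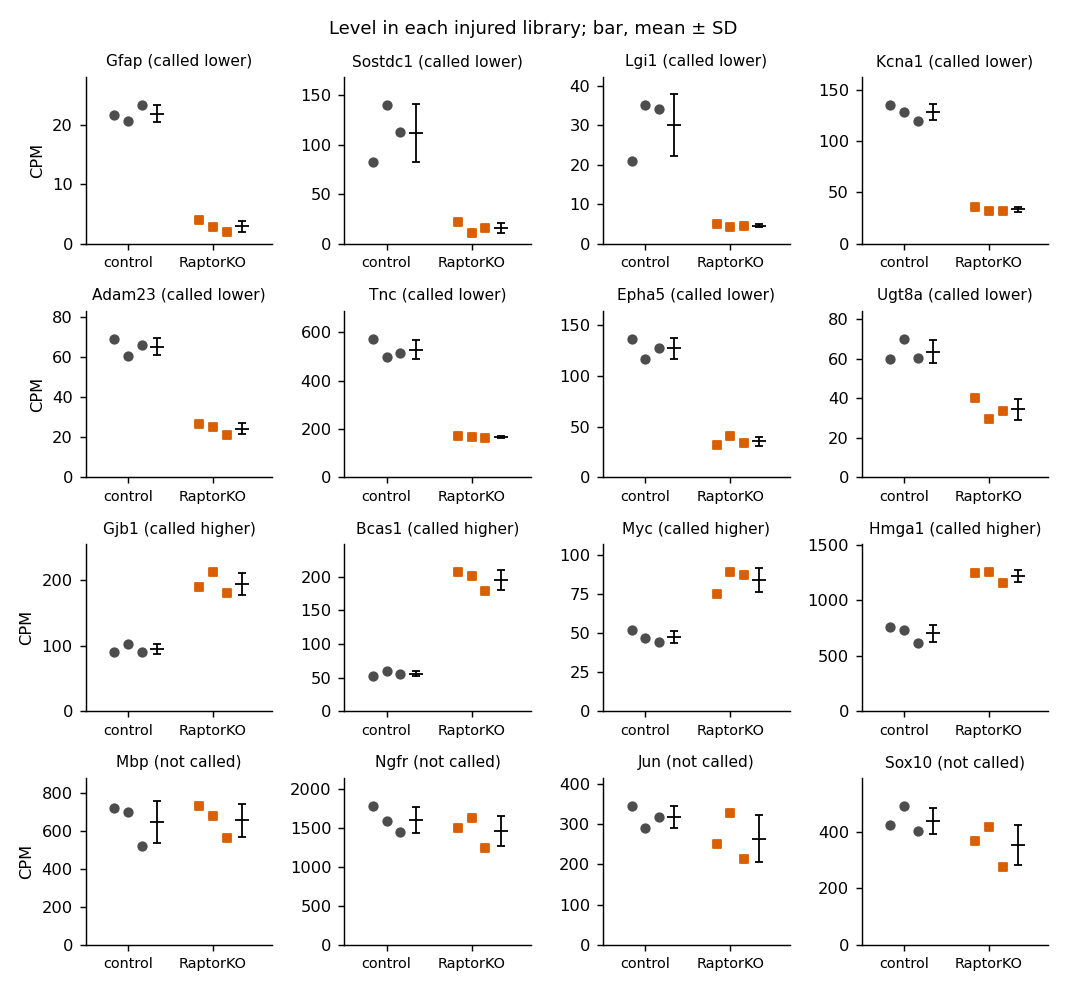
Level in CPM (y axis, from 0) of 16 genes in each of the 3 control (grey circles) and 3 RaptorKO (orange squares) injured libraries, with the mean and SD as a black bar. The groups lie apart for the 12 called genes, such as Kcna1 (119.7 to 135 against 31.97 to 36.1), and overlap for Mbp, Ngfr, Jun and Sox10.

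Filament and adhesion genes of immature and repair SCs fell in part. Of 13 tested, 5 were lower and 0 higher (median -0.40), with 3 lower without control injured 1 or without RaptorKO injured 1. Gfap, the intermediate filament of non-myelinating and repair SCs, had control levels of 21.6, 20.5 and 23.3 CPM and RaptorKO levels of 3.93, 2.76 and 2.02 CPM. No RaptorKO library came near a control (log2 fold change -2.89, SE 0.25, adjusted p = 0.000117). The adhesion molecules Ncam1 (-0.89, SE 0.15) and Chl1 (-0.86, SE 0.11) were lower. Ngfr, the p75 neurotrophin receptor of immature and repair SCs, had control levels of 1788, 1588 and 1453 CPM and RaptorKO levels of 1500, 1631 and 1251 CPM, and its groups overlapped (log2 fold change -0.12, SE 0.13, adjusted p = 0.675).

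The transcriptional regulators of the repair state were largely outside the called genes. Of 16 tested, 0 were lower and 2 higher, and of 10 AP-1 factors 0 were lower and 1 higher. Jun, the AP-1 factor that drives the repair programme, had control levels of 345, 290.5 and 316 CPM and RaptorKO levels of 251, 328 and 213 CPM (log2 fold change -0.25, SE 0.16, adjusted p = 0.41). RaptorKO injured 2 lay within the control range and the other RaptorKOs below it, and without that library the adjusted p was 0.0584. Sox2, which keeps SCs immature, overlapped as well (log2 fold change -0.22, SE 0.19, adjusted p = 0.57). Hmga1, a chromatin architectural protein, was higher, with control levels of 758, 729 and 618 CPM and RaptorKO levels of 1246, 1255 and 1160 CPM (log2 fold change 0.81, SE 0.12, adjusted p = 0.00218).

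Secreted signals and their receptors gave few calls, where 4.44% of all tested genes were lower and 4.09% higher. A list with 1 called gene does not stand out from these shares. Of 19 neurotrophic genes 2 were lower (10.5%) and 1 higher (5.26%). Lif, an injury-induced cytokine, fell from 27.8, 35.7 and 34.02 CPM in controls to 16.2, 19.97 and 14.97 CPM in RaptorKOs (log2 fold change -0.91, SE 0.17, adjusted p = 0.00796), and its receptor Lifr rose (0.82, SE 0.14, adjusted p = 0.00489). Gdnf, a survival factor for motor neurons, had 62.6 to 70.2 CPM in controls and 46.7 to 67.97 CPM in RaptorKOs (log2 fold change -0.18, SE 0.14, adjusted p = 0.533). Of 12 hedgehog genes 0 were lower and 1 higher. Shh, a hedgehog ligand induced by injury, had control levels of 229, 208 and 205 CPM and RaptorKO levels of 100.4, 203 and 148 CPM, a wide spread among RaptorKOs (log2 fold change -0.49, SE 0.20, adjusted p = 0.181). Without RaptorKO injured 2, Shh was lower with an adjusted p of 0.00663. Gli1, a target of hedgehog signalling, rose from 25.7, 23.1 and 29.1 CPM in controls to 43.2, 58.03 and 50.2 CPM in RaptorKOs (log2 fold change 0.98, SE 0.15, adjusted p = 0.00324).

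Among 37 axon guidance genes 6 were lower and 2 higher. Epha5, an ephrin receptor, had control levels of 136, 116 and 128 CPM and RaptorKO levels of 31.7, 40.7 and 34.4 CPM (log2 fold change -1.82, SE 0.13, adjusted p = 1.7e-05). The semaphorin Sema3e fell by 1.04 on the log2 scale (SE 0.18). Without control injured 1 or control injured 2, 3 guidance genes were lower, and without RaptorKO injured 1, 2. Of 21 Wnt genes 3 were lower (14.3%), also without any single library, and 1 higher (4.76%). Nkd1, a feedback inhibitor of Wnt signalling (-1.34, SE 0.17, adjusted p = 0.00116), and Frzb, a secreted Wnt antagonist (-1.20, SE 0.16, adjusted p = 0.0014), were among the lower ones. Axin2, a Wnt target, had a log2 fold change of -0.13 (SE 0.21). In insulin and IGF signalling 2 of 18 genes were lower and 2 higher. Igfbp5, which binds IGFs, had control levels of 5656, 4256 and 3679 CPM and RaptorKO levels of 2255, 2013 and 2673 CPM (log2 fold change -0.95, SE 0.16, adjusted p = 0.00485).

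Most ribosomal protein genes were higher in RaptorKOs. Of 79 ribosomal protein genes 56 were higher and 0 lower (median 0.55), and 68 had groups that did not overlap. Rpl4, of the large subunit, had control levels of 743, 803 and 851 CPM and RaptorKO levels of 1349, 1422 and 1330 CPM (log2 fold change 0.79, SE 0.11, adjusted p = 0.00209). Rps6, of the small subunit, had control levels of 616, 721 and 727 CPM and RaptorKO levels of 1028, 1140 and 986 CPM (log2 fold change 0.63, SE 0.12, adjusted p = 0.0104). All RaptorKOs lay above all controls for both. The count of ribosomal calls changed with the libraries kept, being 24 without control injured 1, 18 without control injured 2 and 22 without RaptorKO injured 1. Higher genes of all kinds fell as well in these settings, to 306, 176 and 234. Without RaptorKO injured 3 the ribosomal count was 64. Ribosomal protein genes have many near-identical pseudogenes, among which the counting shares out reads, so single members are uncertain.

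Translation factors whose messages carry a terminal oligopyrimidine tract gave 11 higher of 27 and 0 lower (median 0.33). Eef1a1, which brings tRNAs to the ribosome, had control levels of 7883, 7774 and 7424 CPM and RaptorKO levels of 13157, 12450 and 12775 CPM (log2 fold change 0.75, SE 0.10, adjusted p = 0.00134). Npm1, a nucleolar chaperone (0.80, SE 0.12), and Rack1, a ribosome-bound scaffold (0.70, SE 0.13), rose too. The count was 5 without control injured 1, 4 without control injured 2 or RaptorKO injured 1, and 7 without RaptorKO injured 2.

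Of 43 factors that assemble ribosomes 10 were higher and 0 lower (median 0.31), with 5 without control injured 2 or RaptorKO injured 1. Nop14, needed for the small subunit, had control levels of 44.02, 36.1 and 35.5 CPM and RaptorKO levels of 65.2, 73.9 and 69.3 CPM (log2 fold change 0.87, SE 0.12, adjusted p = 0.00192). Ncl, nucleolin, rose by 0.69 on the log2 scale (SE 0.11). The E-box (CACGTG, which reads the same on both strands), an element bound by Myc among others, was present in 28.2% of the 39 assembly genes with a window, in 10.3% of tested genes and in 7.24% of all genes. The share was not particular to this list. It was 25% in 20 mTOR and TSC genes, 23.5% in 17 insulin and IGF genes and 8.2% in 61 oxidative phosphorylation genes. A link to Myc was not tested.

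Metabolic genes gave few calls. By edgeR none of 74 oxidative phosphorylation genes (median -0.06), 23 sterol synthesis genes (median -0.22) or 34 autophagy genes (median -0.05) was called. At an unadjusted p below 0.05 there were 3, 6 and 2, all lower, and DESeq2 and the exact test called 0 in each. That unadjusted threshold was passed by 2594 of all 12040 tested genes, in either direction. In sterol synthesis 22 of the 23 log2 fold changes were below 0, and 8 genes had RaptorKO levels all below the controls. The summed sterol genes were 518 to 558 CPM in controls and 439 to 466 CPM in RaptorKOs. Small changes were often missed by the test, so no call does not mean no change. Of 27 genes of fatty acid and sphingolipid synthesis 2 were lower and 0 higher, with sums of 3649 to 3915 CPM in controls and 2987 to 3051 CPM in RaptorKOs. Fads2, a desaturase, had control levels of 121, 116 and 89.2 CPM and RaptorKO levels of 59.4, 49.4 and 59.99 CPM (log2 fold change -0.94, SE 0.13, adjusted p = 0.00192). Scd2, another desaturase, had control levels of 1629, 1611 and 1444 CPM and RaptorKO levels of 981, 1015 and 971 CPM (log2 fold change -0.64, SE 0.11, adjusted p = 0.00483). Fasn, the fatty acid synthase, had control levels of 130.4, 124 and 119.9 CPM and RaptorKO levels of 111, 81.2 and 93.2 CPM, groups that did not overlap and no call (log2 fold change -0.38, SE 0.12, adjusted p = 0.0799).

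Lysosomal genes gave 4 lower of 37 and 0 higher (median -0.15), with 2 lower without control injured 2. Atp6v0d2, a proton pump subunit of macrophages and osteoclasts, fell from 117, 90.1 and 118 CPM in controls to 46.05, 58.1 and 54.02 CPM in RaptorKOs (log2 fold change -1.02, SE 0.14, adjusted p = 0.00157). Lipa, the lysosomal acid lipase, fell by 0.58 (SE 0.10, adjusted p = 0.0064). Of 22 glycolysis genes 2 were lower and 1 higher. The ATF4 targets (22 tested), aminoacyl tRNA synthetases (20) and proteasome genes (33) had 1 higher member each and 0 lower.

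Genes of blood vessels were higher in RaptorKO injured nerves. Of 30 endothelial genes 19 were higher and 0 lower, all 30 log2 fold changes were above 0, and the median was 0.84. The summed level was 884, 1050 and 1212 CPM in controls, against 1658, 2260 and 1655 CPM in RaptorKOs. Vwf, the von Willebrand factor, had control levels of 116, 146 and 153 CPM and RaptorKO levels of 270.4, 368 and 255 CPM (log2 fold change 1.13, SE 0.16, adjusted p = 0.00218). Ptprb, an endothelial phosphatase, rose by 1.12 (SE 0.18, adjusted p = 0.00357). The count was 5 without control injured 1, 3 without control injured 2, 11 without RaptorKO injured 1 and 12 without RaptorKO injured 2. In contralateral nerves the median over the 28 members tested there was 0.03.

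Mural cells, which wrap vessels, had 8 of 11 genes higher, 0 lower and a median of 1.17, with 5 higher without control injured 1. Rgs5, a pericyte marker, had control levels of 210.1, 261 and 286 CPM and RaptorKO levels of 449.5, 623 and 514 CPM (log2 fold change 1.08, SE 0.16, adjusted p = 0.00225). Notch3, a receptor of mural cells (1.30, SE 0.17), and Myh11, the smooth muscle myosin (1.41, SE 0.20), rose as well. Pdgfrb, also made by fibroblasts and named after its values were seen, had a log2 fold change of 0.08 (SE 0.13).

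Erythrocyte and mast cell genes moved in the same direction. Summed erythrocyte genes were 5.96, 6.82 and 24.9 CPM in controls, against 46.5, 75.8 and 49.6 CPM in RaptorKOs. The 3 tested were all higher, a count that was 1 without control injured 1 and 0 without control injured 2. Another 4 were too low to be tested. With control levels this low, a member could pass the count filter through the RaptorKO libraries alone, so 3 of 3 says little. Summed mast cell genes were 41.5, 12.2 and 58.2 CPM in controls, against 119, 219.9 and 150.1 CPM in RaptorKOs. Of 7 mast cell genes 5 were higher (median 2.33), with 1 higher without control injured 1 and 2 without RaptorKO injured 1. Another 5 were too low to be tested. Hdc no longer passed the count filter without RaptorKO injured 1 or without RaptorKO injured 2. Here too a member could pass through the RaptorKO libraries alone, so 5 of 7 and the median say little. Mast cell genes were also higher in contralateral RaptorKO nerves (median 1.97, sums of 19.99 to 71.95 CPM in controls and 93.4 to 163 CPM in RaptorKOs). The interaction was called for 0 of them. For erythrocyte genes the contralateral median was 0.90. RaptorKO injured 2 was the highest injured library in the erythrocyte, mast cell, endothelial and mural sums. Cma1, mast cell chymase, had control levels of 5.41, 0.46 and 11.9 CPM and RaptorKO levels of 21.9, 49.4 and 32.6 CPM (log2 fold change 2.57, SE 0.61, adjusted p = 0.0253), and was no longer called once control injured 1 was left out (adjusted p = 0.0785). The part of residual blood in the vessel genes was not tested.

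**Figure D4:**
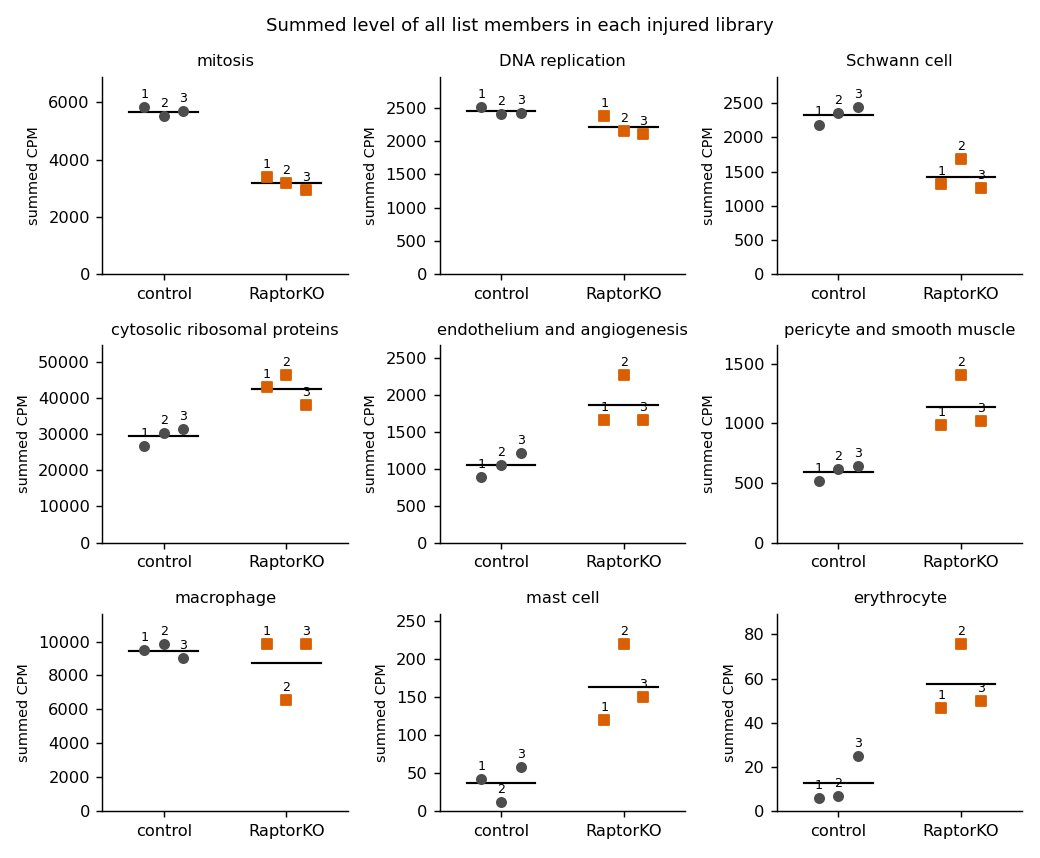
Summed level in CPM (y axis, from 0) of all members of 9 gene lists in each injured library, numbered by replicate, with a bar at the group mean (grey circles, controls; orange squares, RaptorKOs). Mitosis and SC genes lie lower and vessel, mast cell and erythrocyte genes higher in RaptorKOs, whereas the macrophage sums overlap and RaptorKO injured 2 stands below the other libraries at 6528 CPM.

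Few macrophage genes were called in injured nerves. Of 29 tested 1 was lower and 0 higher (median 0.10), with 21 log2 fold changes above 0 and 8 below. The lower one was Gpnmb, a glycoprotein of lipid-laden macrophages (log2 fold change -0.69, SE 0.18, adjusted p = 0.0373), no longer called when control injured 2, control injured 3 or RaptorKO injured 1 was left out (adjusted p = 0.132, 0.121 and 0.0839). Cd68, a lysosomal glycoprotein of macrophages, had control levels of 397, 323 and 248 CPM and RaptorKO levels of 414, 185 and 425 CPM (log2 fold change 0.10, SE 0.26, adjusted p = 0.891). RaptorKO injured 2 was below all controls and the other RaptorKOs above them. In contralateral nerves the median over the 22 macrophage genes tested there was 0.88. Their list summed to 401 to 436 CPM in contralateral controls and 606 to 793 CPM in contralateral RaptorKOs. The interaction was called for 3 macrophage genes. Of 17 antigen presentation genes 2 were higher and 0 lower. H2-Ab1, a class II chain, had control levels of 179.6, 182 and 147 CPM and RaptorKO levels of 304, 191 and 355 CPM (log2 fold change 0.75, SE 0.19, adjusted p = 0.0315). Its adjusted p was 0.000702 without RaptorKO injured 2, and the call was lost without any other single library (0.0716 to 0.129). Of 22 phagocytosis genes 2 were lower, among them Gulp1, an adaptor for engulfment (-0.90, SE 0.13, adjusted p = 0.00191).

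Among 23 chemokines and cytokines 3 were higher and 0 lower, with 2 higher without control injured 2, control injured 3, RaptorKO injured 1 or RaptorKO injured 3. Cxcl12, a chemokine of stromal and endothelial cells, had control levels of 44.6, 39.7 and 52.7 CPM and RaptorKO levels of 97.5, 93.9 and 101 CPM (log2 fold change 1.11, SE 0.12, adjusted p = 0.000687). Cxcl14, another chemokine, had control levels of 59.4, 72.1 and 49.3 CPM and RaptorKO levels of 130.5, 182 and 160.3 CPM (log2 fold change 1.40, SE 0.16, adjusted p = 0.000687). Neither showed any overlap. The monocyte attractant Ccl2 did overlap (log2 fold change 0.52, SE 0.22, adjusted p = 0.204). By edgeR none of 17 interferon response genes was called, with 2 lower and 3 higher at an unadjusted p below 0.05 and 0 called by DESeq2. Among all 12040 tested genes 2594 passed that unadjusted threshold.

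The extracellular matrix changed in both directions. Of 24 matricellular genes 3 were lower and 4 higher, and 2 were higher without control injured 2 or RaptorKO injured 1. Tnc, tenascin C, a glycoprotein of injured tissue, had control levels of 575, 496 and 517 CPM and RaptorKO levels of 171, 168 and 164 CPM (log2 fold change -1.65, SE 0.11, adjusted p = 1.27e-05). Cspg4, the NG2 proteoglycan, also carried by pericytes, had control levels of 51.3, 42.1 and 41.2 CPM and RaptorKO levels of 122, 106 and 100.2 CPM (log2 fold change 1.30, SE 0.12, adjusted p = 0.000235). Both were cleanly separated by genotype. Fn1, fibronectin, had control levels of 2893, 1411 and 1062 CPM and RaptorKO levels of 1724, 1259 and 2893 CPM, a wide spread in both groups (log2 fold change 0.15, SE 0.34, adjusted p = 0.869).

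Of 23 collagen genes 4 were lower and 4 higher. Col12a1, a fibril-associated collagen (1.49, SE 0.20, adjusted p = 0.00168), and Col5a3 (0.88, SE 0.12, adjusted p = 0.00153) rose, and Col16a1 (-0.96, SE 0.15, adjusted p = 0.00362) fell. Without control injured 2 or RaptorKO injured 1 the counts were 2 and 2. The higher count was 2 without control injured 3, 7 without control injured 1 and 9 without RaptorKO injured 2. Of 28 laminin and integrin genes 2 were lower and 5 higher, the latter 3 without control injured 1, control injured 3 or RaptorKO injured 1 and 2 without control injured 2. Lamb2, a laminin chain of basement membranes, had control levels of 154, 131 and 133 CPM and RaptorKO levels of 219, 219 and 225 CPM (log2 fold change 0.68, SE 0.10, adjusted p = 0.00289). Itga8, an integrin chain of smooth muscle, rose by 1.03 (SE 0.17).

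Of 24 matrix proteases and inhibitors 4 were lower and 3 higher. The lower count was 2 without control injured 1 or control injured 3. The higher count was 1 without control injured 2, control injured 3, RaptorKO injured 1 or RaptorKO injured 3, and 6 without RaptorKO injured 2. Adamts5, an aggrecanase, fell from 279.5, 259 and 246 CPM in controls to 108, 171 and 134 CPM in RaptorKOs (log2 fold change -0.91, SE 0.15, adjusted p = 0.00489). Plau, the urokinase plasminogen activator, rose from 17.6, 16.7 and 18.2 CPM in controls to 37.3, 25.03 and 44.1 CPM in RaptorKOs (log2 fold change 1.03, SE 0.19, adjusted p = 0.00858). Of 13 fibroblast and perineurial genes 4 were higher and 0 lower (median 0.58). That count was 1 without control injured 2, control injured 3, RaptorKO injured 1 or RaptorKO injured 3, and 7 without RaptorKO injured 2. Ly6a, a surface marker of fibroblasts and endothelium, rose by 0.76 (SE 0.14).

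The effect of genotype was set against that in contralateral nerves by the interaction of genotype and injury, fitted on all 13 libraries. It was called for 318 of 12851 genes, which is 2.47%. Of 17 nodal, juxtaparanodal and LGI genes 6 had an effect that differed between the nerves. Only 14 of 64 mitotic genes passed the count filter in contralateral nerves, so their genotype effect there was barely measured and no count is given for them. Among ribosomal proteins 0 of 79 differed by edgeR, with 27 at an unadjusted p below 0.05 and 8 called by DESeq2, and the contralateral median was 0.85 beside 0.55 in injured nerves. No share over all genes was taken at that unadjusted threshold, so the 27 have no background. The same injured libraries entered the calls and the interaction.

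Some genes had little difference by genotype in contralateral nerves. Epha5 had a contralateral log2 fold change of -0.20 (adjusted p = 0.593) and an interaction of -1.61 (adjusted p = 0.000772). Sostdc1 had -0.29 (adjusted p = 0.137) and an interaction of -2.48 (adjusted p = 0.000423). Gjb1 had -0.25 (adjusted p = 0.123) and an interaction of 1.30 (adjusted p = 0.000175). The interactions of Nkd1 (-1.31), Ugt8a (-0.98), Vwf (1.09) and Rgs5 (1.23) were called as well, beside contralateral log2 fold changes of -0.02, 0.12, 0.04 and -0.14.

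For others the difference was found in both nerves, where 5.68% of genes tested in contralateral nerves were lower and 4.49% higher. S100b had a contralateral log2 fold change of -0.93 (adjusted p = 0.000191) and an interaction of -0.15 (adjusted p = 0.809). Frzb (-1.32), Adamts5 (-1.24) and Scd2 (-0.60) were lower there too, with interactions of 0.13, 0.33 and -0.04 that were not called. Gfap (-1.12, adjusted p = 0.0308) and Lgi1 (-1.13, adjusted p = 0.000218) were lower in contralateral nerves and more so after injury, with interactions of -1.76 and -1.56. With the mouse as a replicate block the interaction of Gfap was no longer called (adjusted p = 0.0625). Eef1a1 differed more in contralateral nerves (1.29), with an interaction of -0.54 (adjusted p = 0.0259).

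**Figure D5:**
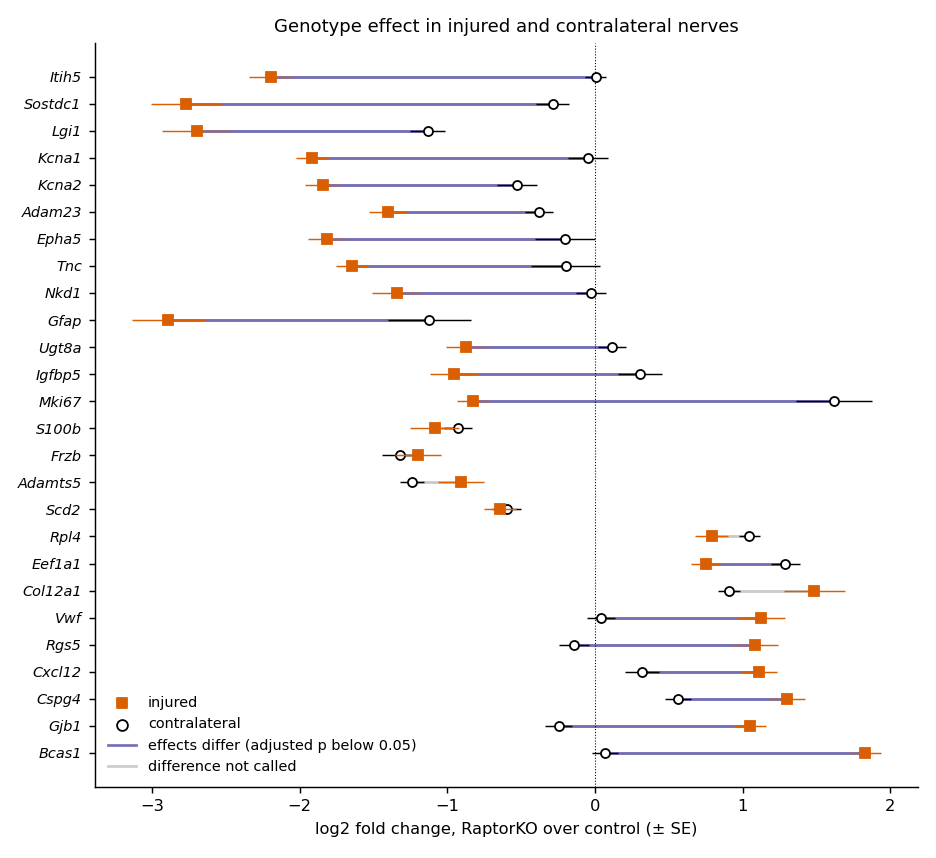
Log2 fold change of RaptorKO over control with its SE (x axis) for 26 named genes in injured (orange squares) and contralateral nerves (open circles). Purple connectors mark genes whose effects differed (interaction, adjusted p below 0.05), such as Epha5 (-1.82 against -0.20), and grey ones those not called, such as S100b (-1.09 against -0.93).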

How the data were processed

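RNA of sciatic nerves without epineurium, the part distal to the lesion for crushed nerves, was sequenced from TruSeq libraries. Per the labels and the submitters' processing notes, the authors trimmed reads with Trimmomatic and estimated expected counts per gene with RSEM 1.2.22 on GRCm38. The deposited expected counts were rounded to whole numbers. Whether counting used strand is not given in the sources used here, so reads of overlapping genes (Kif20a with Cdc23, Gli1 with Arhgap9, Hmga1 with AI413582, Ccnd1 with LTO1) may be shared. Groups came from the labels.

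Genes reaching 50 counts in at least 2 injured libraries (9792211 to 11734576 counts) were tested with the quasi-likelihood test of edgeR 4.0.16 (R 4.3.3, TMM factors) on genotype alone, with Benjamini-Hochberg adjustment. The study's test, edgeR's exact test, was an alternative, as was DESeq2 1.42.0. The interaction was fitted on all 13 libraries. CPM share 1 scale over 13 libraries. Depth sets the counting error only. On simulated counts with known changes the test made more false calls than its nominal rate and missed most small changes. Replicates of a group differed by more than sampling noise.

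Members, gene lists and motifs were chosen with earlier results of these data known. Lists were described by counts and medians, with no test over a list. Named genes were Rptor, list anchors whatever their result, the 4 called members of a list with the smallest p, the 15 genes with the largest change in each direction (mean of at least 3 CPM), and the 5 with the smallest interaction p, and not every such gene is described. Genes marked in the text were named after their values were seen, and a few genes are not reported here. Gene positions came from GENCODE M21, which matched 40634 of 40787 identifiers, and promoters from RefSeq (GRCm38.p6), which matched 77.9% of tested genes. Alternatives covered the test, scaling, filter, threshold, sex chromosomes, the replicate block and each library left out.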

Additional observations from a re-analysis of the deposited data

Results flagged for a closer look

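Of the genes called in injured nerves, 118 lower ones (22.06%) and 68 higher ones (13.79%) were noted. Their effect of genotype differed from that in contralateral nerves (interaction of genotype and injury, edgeR's quasi-likelihood test). Over all 12851 genes fitted the share was 2.47%. The same injured libraries entered the calls and the interaction, so a larger share among called genes is partly built in. Mitotic genes, barely measured in contralateral nerves, were not taken out. Of these 535 lower and 493 higher genes 407 and 469 passed the count filter in contralateral nerves. The 5 genes with the smallest interaction p were among them. Itih5, which encodes a hyaluronan-binding matrix protein, had control levels of 403, 533 and 464 CPM and RaptorKO levels of 112, 82.7 and 108 CPM, and its effect differed by -2.19 on the log2 scale (adjusted p = 1.02e-05). The contralateral log2 fold change of Itih5 was 0.00. Kcna1 differed by -1.87 (adjusted p = 0.000175) and Bcas1 by 1.77 (adjusted p = 1.02e-05). Mki67 differed by -2.43 (adjusted p = 0.000175) and Cenpf, a kinetochore protein, by -3.38 (adjusted p = 0.000175). Contralateral control means were low for Mki67 (4.79 CPM) and Cenpf (0.777 CPM), so the size of these differences depends on few counts.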

How the results depend on the processing

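Lower genes numbered 271 to 515 and higher genes 176 to 484 when 1 library was left out, against 535 and 493, and 219 and 132 at an adjusted p below 0.01. Without a count filter 856 genes were higher. DESeq2 gave 648 and 672 and the exact test 655 and 667. The share of calls that were higher was 48%, 51.7% with library totals only and 37.6% at the stricter threshold. Called list members (289) ranged from 149 to 277 without 1 library and were 129 at the stricter threshold. The ranges without 1 library were 18 to 64 for ribosomal proteins (56), 4 to 10 for translation factors (11), 5 to 9 for assembly factors (10) and 3 to 17 for endothelium (19), and the stricter threshold gave 14, 3, 5 and 4. Mitotic genes gave 43 to 55. The interaction (318) was called for 132 to 284 genes without 1 library and for 598 by DESeq2.

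The labels number the replicates. Same-numbered control and RaptorKO libraries deviated with correlations of -0.000721, 0.00384 and -0.119, against -0.245 to 0.263 for different numbers. No pairing by number was seen, but 3 libraries a group are too few to decide whether the numbers pair the genotypes. With the replicate block 424 genes were lower, 372 higher, and 240 list members, 6 translation factors and 332 interactions were called. Both nerves of a number were read as 1 mouse (correlations of -0.0239 to 0.305, against -0.298 to 0.137 for different numbers of a genotype). Control injured 1 and RaptorKO injured 1 correlated more with contralateral nerve 2 (0.136 and 0.094) than with their own number (0.0674 and -0.0239). Control 3 alone was high in Xist in both nerves, 14462 and 15017 counts. With the mouse as a replicate block, chosen after seeing the data, the interaction was called for 353 genes, 252 of them among the 318.

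Among genes that were not called, leaving out 1 library changed the sign of the log2 fold change for Mtor (-0.15 to 0.16), Mcm2 (-0.086 to 0.11), Ccnd1 (-0.16 to 0.013), Mbp (-0.10 to 0.14), Fn1 (-0.24 to 0.67), Cd68 (-0.089 to 0.39) and Pdgfrb (-0.084 to 0.19). The cause was not tested.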
